A study of Homo sapiens with 12 samples.

Results

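The genes described here are 32 human genes of the endoplasmic reticulum (ER) that fold secretory and membrane proteins, dispose of those that fail to fold, or sense the load of unfolded protein. They were chosen by gene symbol, from a list of ER chaperones, disulfide isomerases and quality-control genes. The list itself names no measured value but was drawn up with earlier results of these data known. All 32 were found among the 19219 gene entries of a ribosome profiling table. Ribosome profiling sequences the stretches of mRNA that ribosomes shield from nuclease, so that footprints per length of a transcript give its ribosome density. The cells were HEK293, a human embryonic kidney line. CNBP, a zinc-finger protein that binds nucleic acids, had been knocked out by CRISPR-Cas9 in some of them. The knockout cells gave 3 samples treated with cycloheximide, and the wild-type cells gave 5. After harringtonine and cycloheximide there was 1 knockout sample and there were 3 wild-type samples. Cycloheximide freezes elongating ribosomes on the mRNA. Harringtonine halts ribosomes that have just started, while those further along can finish and leave. Both knockout columns are headed with one and the same knockout name (KO6), and how many clones stand behind it was not stated, so a clone's own traits and the loss of CNBP cannot be told apart. The labels do not say whether samples of a group were separate cultures.

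The deposited table holds 1 mean density per group and no value per sample. No spread between replicates can therefore be computed, no test between groups was possible, and no p-value, standard deviation or standard error is given. Every difference below is a difference between authors' means. Each ratio is a log2 ratio from which the median over the compared genes was subtracted, so 0 marks the middle gene. For knockout over wild type the subtracted medians were -0.44 (cycloheximide) and -0.28 (harringtonine). For harringtonine over cycloheximide they were 0.27 in the knockout and 0.11 in wild type. Of 12091 genes with all 4 means above 0, the 6045 whose level (the geometric mean of the 4 densities) exceeded 0.114 were compared, and 21 of the 32 ER genes were among them. The other 11, which are TXNDC5, DNAJB9, DNAJC3, DNAJC10, SEL1L, EDEM1, EDEM2, DERL1, DERL2, HERPUD1 and ERN1, lay below that level, and their values are given but enter no count of calls. Genes with a relative ratio of 2-fold or more in either direction are called higher or lower.

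Depth was estimated from the table itself as effective reads, the number of reads that would carry the same counting error as a group's mean. The 32 genes together held 2664 effective reads in knockout cells with cycloheximide, against 9163 in wild type. With harringtonine they held 1672 in knockout cells, against 4442 in wild type. These were 0.312% of all effective reads in knockout and 0.428% in wild-type cells with cycloheximide, and 0.417% in knockout and 0.392% in wild-type cells with harringtonine. The 95% intervals beside the ratios are Clopper-Pearson intervals from these reads. They cover counting error only, are approximate, and leave out any spread between cultures. The densities come from bulk cultures without matched RNA values here, so less mRNA per cell, fewer cells carrying it and fewer ribosomes per mRNA cannot be told apart. The knockout label was checked first. CNBP itself had densities of 2.20 in knockout cells and 3.73 in wild-type cells with cycloheximide, a relative ratio of -0.32 (interval -0.58 to -0.07), and of 2.36 and 3.27 with harringtonine, a relative ratio of -0.19 (-0.59 to 0.20). Footprints were thus still counted on CNBP in the columns labelled knockout. Whether they lie outside the edited stretch was not tested, and knockout below means the columns labelled so. As a check of the line, the epithelial keratin genes KRT8, KRT18 and KRT19 had densities above 0 in every group. KRT19 was higher in the knockout, at a relative ratio of 1.70 (1.23 to 2.17) with cycloheximide and 2.12 (1.31 to 2.97) with harringtonine, while KRT8 (0.21 and 0.48) and KRT18 (-0.09 and 0.26) had intervals that include 0. The blood cell genes PTPRC and CD3E were listed at 0 in every group. HBB, a globin gene, was at 0 in knockout and 0.0444 in wild-type cells with cycloheximide, and at 0.134 and 0.0599 with harringtonine, on at most 3.09 effective reads in a group.

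Proteins that enter the ER are met by HSPA5 (BiP) and HSP90B1 (GRP94), which bind unfolded chains and use ATP, and by the lectins CANX and CALR, which hold glycoproteins. Disulfide isomerases of the PDI family make and reshuffle disulfide bonds. Chains that do not fold are recognised, pulled back to the cytosol, ubiquitinated and degraded, a route called ER-associated degradation (ERAD). When unfolded protein accumulates, the sensors ERN1 (IRE1), ATF6 and EIF2AK3 (PERK) start the unfolded protein response. Its transcription factors ATF6 and XBP1 induce many of the chaperone genes through the ER stress response element, which reads CCAAT, a spacer of 9 bases, then CCACG.

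That element is printed for the ER genes that carry it, because it is a known element of many chaperone genes, as given above. It was not used to choose the genes, but matches among chaperone genes were known to be likely beforehand. It was searched for as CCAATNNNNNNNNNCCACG on both strands of RefSeq promoters (GRCh38.p14, 250 bases before to 50 bases after a gene's start). It was found in 27 of 35116 promoters, or 0.0769%, and in 25 of 27305 genes, or 0.0916%. Among the ER genes it was found in 7 of the 30 with a listed promoter, or 23.3%, at 8 places. PDIA3 and DERL1 had no entry. The 8 matches are given from 5′ to 3′ on the strand that carries the motif, with 5 bases on each side, and capitals mark CCAAT and CCACG. A match describes these letters and does not show that a factor binds there.
HSPA5, chr9:125241386-125241414, minus strand: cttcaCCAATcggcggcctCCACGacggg
HSP90B1, chr12:103930211-103930239, plus strand: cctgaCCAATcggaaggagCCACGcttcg
HSP90B1, chr12:103930316-103930344, minus strand: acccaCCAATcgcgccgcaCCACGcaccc
CANX, chr5:179698773-179698801, plus strand: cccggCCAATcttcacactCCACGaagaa
CALR, chr19:12938379-12938407, minus strand: accgaCCAATgatggtcgaCCACGcgtgg
PDIA6, chr2:10812848-10812876, minus strand: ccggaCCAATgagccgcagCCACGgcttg
CRELD2, chr22:49918549-49918577, minus strand: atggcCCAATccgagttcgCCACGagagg
XBP1, chr22:28800598-28800626, minus strand: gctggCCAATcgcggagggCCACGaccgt
In CALR, CRELD2 and the second HSP90B1 match the motif reads on the strand opposite to the gene. The other 5 matches read in the direction of the gene.

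The ER genes spanned a wide range of ribosome density, and a few chaperones carried most of their footprints. CALR had the highest density of the 32 in every group and HSP90B1 the next. In the knockout sample with harringtonine the counting intervals of CALR and HSP90B1 overlapped, so their order was not resolved there. HSPA5, CANX, CALR and HSP90B1 together held 57.3% of the ER genes' effective reads in knockout and 58.2% in wild-type cells with cycloheximide, and 58.7% in knockout and 59.7% in wild-type cells with harringtonine. CALR (ENSG00000179218, hg19 chr19:13049392-13055303, plus strand), the soluble calcium-binding lectin, had densities of 4.15 in knockout and 6.58 in wild-type cells with cycloheximide, and of 5.96 and 10.5 with harringtonine. HSP90B1 (ENSG00000166598, hg19 chr12:104323885-104347423, plus strand), the ER member of the HSP90 family, had 3.34 in knockout and 5.43 in wild-type cells with cycloheximide, and 5.30 and 6.14 with harringtonine. At the other end stood the stress sensor ERN1, the ERAD lectins EDEM1 and EDEM2 and the co-chaperone DNAJB9. The lowest density was 0.0156 (EDEM1) in knockout and 0.0360 (ERN1) in wild-type cells with cycloheximide. With harringtonine it was 0.0198 (EDEM2) in the knockout sample and 0.0302 (EDEM1) in wild type. The median of the 32 was 0.149 in knockout and 0.212 in wild-type cells with cycloheximide, and 0.227 and 0.254 with harringtonine. Most neighbours in the order of levels had overlapping counting intervals, with cycloheximide 28 of 31 pairs in knockout and 26 in wild-type cells, and with harringtonine 30 and 25. Behind those 2 genes came HSPA5 and CANX, whose counting intervals overlapped in all 4 groups, so that their order was not resolved. Densities were taken to be per base of the longest listed transcript, which ran from 865 to 20129 bases over these genes. If so, a long listed transcript lowers a gene's density. No source used here gives the absolute scale of the unit.

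**Figure D1:**
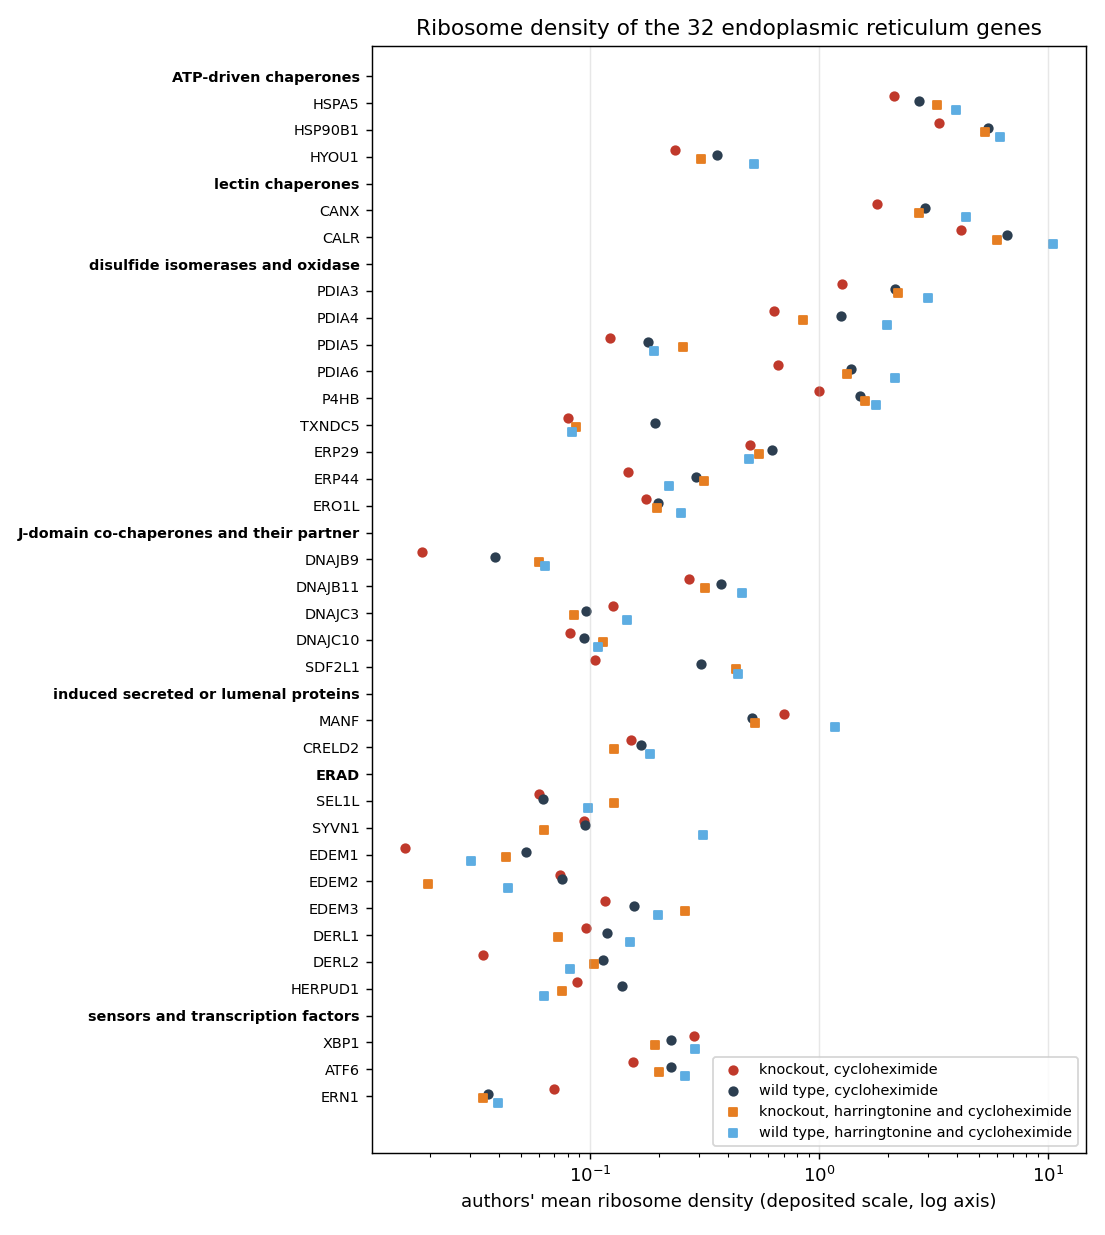
Authors' mean ribosome density (log axis, deposited units) of each of the 32 ER genes in knockout and wild-type cells with cycloheximide and with harringtonine, grouped by role. CALR, HSP90B1, HSPA5 and CANX lie at densities of 1.78 and above in every group, and EDEM1, EDEM2, ERN1 and DNAJB9 below 0.1.

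The 7 genes with the promoter motif had the higher ribosome densities. Their median density was 1.78 in knockout and 2.74 in wild-type cells with cycloheximide, against 0.176 and 0.305 for the 13 other compared genes whose listed promoter has no match. With harringtonine the medians were 2.73 in the knockout sample and 3.97 in wild type for the genes with the motif, against 0.316 and 0.443 for those without. All 7 genes with the motif were among the genes compared, and 10 genes without it that lay below the level are left out of these medians. XBP1 and CRELD2 carry the motif and had densities under 0.3 in every group, so the motif did not mark abundant genes alone.

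In knockout over wild-type cells with cycloheximide, the ER genes as a group lay close to the middle of all genes, with HSP90B1, both lectins, PDIA3, PDIA4 and PDIA6 somewhat low and MANF and XBP1 high. The median relative ratio of the 21 was -0.11, 13 lay below 0 and 8 above, and they ranged from -1.10 to 0.91. Their interquartile range was 0.39, against 0.73 over all genes compared and 0.41 over the 321 with 100 or more effective reads in every group. One ER gene, SDF2L1, was called lower and 0 were called higher, where 3.24% and 4.43% of all genes compared were called. The counting interval lay below 0 for 6 ER genes (HSP90B1, CANX, CALR, PDIA3, PDIA4 and PDIA6) and above 0 for 2 (MANF and XBP1), where it did so for 14.9% and 14.3% of all genes. Genes with many footprints have narrow intervals, so these shares also depend on level. Over the 321 genes that had 100 or more effective reads in every group, the median relative ratio was itself -0.23, and it was -0.26 for the 5 ER genes among them. The median of those 5 ER genes thus lay close to that of other well-covered genes, and the part of level was not tested.

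Among the ATP-driven chaperones, HSPA5 lay near the middle of all genes. HSPA5 (ENSG00000044574, hg19 chr9:127997132-128003609, minus strand), the HSP70 of the ER and the main inducible marker of ER stress, had a density of 2.12 in knockout and 2.74 in wild-type cells. Its relative ratio was 0.07 with an interval of -0.10 to 0.24. HSP90B1 was lower at -0.26 (-0.41 to -0.11). HYOU1, the large HSP70-like protein that exchanges nucleotide on HSPA5, had densities of 0.235 in knockout and 0.359 in wild-type cells, a ratio of -0.17 with an interval of -0.66 to 0.30 that includes 0.

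Both lectins were slightly lower. CANX (ENSG00000127022, hg19 chr5:179105629-179157926, plus strand), the membrane-bound lectin, had a density of 1.78 in knockout and 2.91 in wild-type cells, a ratio of -0.26 (-0.44 to -0.09). CALR had a ratio of -0.22 (-0.39 to -0.05). Scaling to the 680 genes with a level above 1, as an alternative, gave -0.03 for CANX, 0.01 for CALR, -0.03 for HSP90B1 and 0.31 for HSPA5, so the direction given for CALR turns and those for CANX and HSP90B1 shrink to near 0 under that scaling.

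The disulfide isomerases PDIA6 and PDIA4 were the lowest of the abundant ER genes. PDIA6 (ENSG00000143870, hg19 chr2:10923517-10978103, minus strand), an isomerase that also binds HSPA5 and attenuates ERN1 signalling, had densities of 0.660 in knockout and 1.37 in wild-type cells, a ratio of -0.62 (-0.98 to -0.26). PDIA4 (ENSG00000155660, hg19 chr7:148700154-148725733, minus strand), also known as ERp72, had 0.637 and 1.24, a ratio of -0.52 (-0.88 to -0.18). PDIA3, also known as ERp57, which works with CANX and CALR on glycoproteins, had 1.26 in knockout and 2.15 in wild-type cells, a ratio of -0.33 (-0.55 to -0.11). With the scaling to genes above a level of 1 these became -0.38, -0.29 and -0.10. The founding isomerase P4HB, also the beta subunit of prolyl 4-hydroxylase, had 0.997 and 1.5, a ratio of -0.15 whose interval (-0.46 to 0.15) includes 0. The intervals of the remaining family members also included 0. Their ratios were 0.27 for the oxidase ERO1L, 0.12 for ERP29, -0.11 for PDIA5, -0.55 for ERP44 and, below the level used for counting, -0.82 for TXNDC5.

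Among the J-domain co-chaperones, which stimulate the ATPase of HSPA5, DNAJB11 was level with the middle gene at -0.02 (-0.51 to 0.45). SDF2L1 (ENSG00000128228, hg19 chr22:21996550-21998587, plus strand), which forms a complex with DNAJB11, was the only ER gene called lower among the 21. Its densities were 0.105 in knockout and 0.305 in wild-type cells, a ratio of -1.10, but this rests on 4.09 and 27.0 effective reads and the interval of -3.05 to 0.41 includes 0. Below the level used for counting, DNAJC3, which also restrains the PERK kinase, was at 0.84 (0.16 to 1.5), DNAJC10, a reductase, at 0.24, and DNAJB9, which represses ERN1, at -0.61 from 2.28 effective reads in knockout cells.

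MANF had the highest ratio of the 21. MANF (ENSG00000145050, hg19 chr3:51422478-51426828, plus strand), a small protein held in the ER by HSPA5 and secreted under stress, had a density of 0.706 in knockout cells, against 0.512 in wild type. Its ratio of 0.91 had an interval of 0.36 to 1.44 and rests on 48.1 effective reads in knockout and 79.1 in wild-type cells. CRELD2, another stress-induced secreted protein, had 0.152 and 0.166, a ratio of 0.31 (-0.57 to 1.13).

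The ERAD genes were thinly covered, and only 2 of the 8 were among the genes compared. SYVN1 (HRD1), the ubiquitin ligase of the retrotranslocation complex, had 0.0944 in knockout and 0.0957 in wild-type cells, a ratio of 0.42 (-0.43 to 1.22). EDEM3, a mannosidase that marks misfolded glycoproteins, was at 0.01 (-0.57 to 0.57). The 6 below the level were SEL1L, the partner of SYVN1, at 0.38, EDEM2 at 0.41, DERL1 at 0.14, HERPUD1, a scaffold of the complex, at -0.20, DERL2 at -1.30 (-2.75 to -0.11) and EDEM1 at -1.32 (-3.19 to 0.13). The low end of these rests on 6.46 effective reads for DERL2 and 4.32 for EDEM1 in knockout cells.

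Among the sensors and factors, XBP1 (ENSG00000100219, hg19 chr22:29190543-29196585, minus strand), whose mRNA is spliced by ERN1, had a density of 0.286 in knockout cells, against 0.226 in wild type. Its ratio was 0.78 (0.06 to 1.48), from 28 and 50.3 effective reads. ATF6 was at -0.11 (-0.59 to 0.34). ERN1 (ENSG00000178607, hg19 chr17:62116502-62208179, minus strand) lay below the level, with 0.0695 in knockout and 0.0360 in wild-type cells, a ratio of 1.39 (0.56 to 2.22). The table gives 1 value per gene, so spliced and unspliced XBP1 mRNA were not distinguished.

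**Figure D2:**
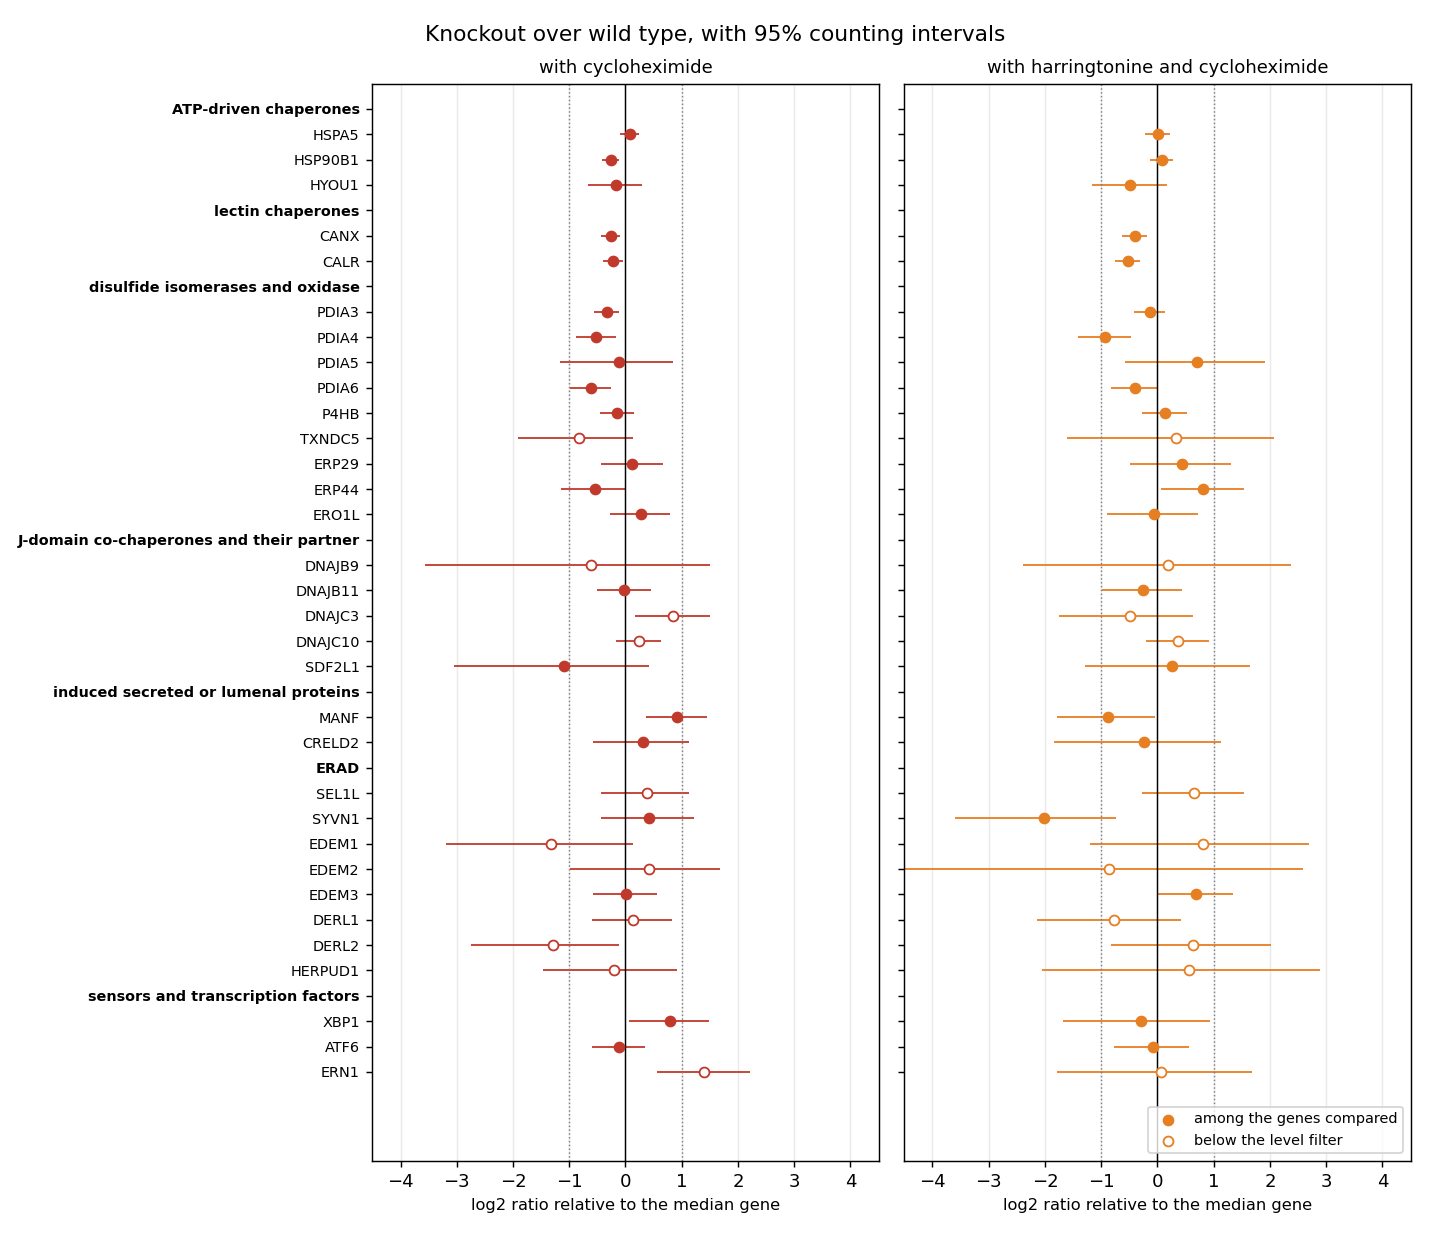
Knockout over wild type, as relative log2 ratio, for each of the 32 ER genes, with cycloheximide and with harringtonine, with 95% counting intervals. Filled points are the 21 genes compared, open points the 11 below the level, and dotted lines mark 2-fold. The EDEM2 interval with harringtonine runs off the axis. With cycloheximide MANF (0.91) and XBP1 (0.78) lie to the right and PDIA6 (-0.62) and PDIA4 (-0.52) to the left, and with harringtonine SYVN1 (-2.01) lies farthest left.

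With harringtonine, the ER genes again had their median near the middle, at -0.14 over the 21 genes, with 13 below 0 and 8 above and a range of -2.01 to 0.80. Their interquartile range was 0.54, against 0.84 over all genes and 0.65 over the 321 with 100 or more effective reads in every group. SYVN1 was the one ER gene called lower and 0 were called higher, where 6.58% and 6.72% of all genes compared were called. SYVN1 passed the level filter (0.115 against 0.114) only through its wild-type harringtonine density, since its densities in the other groups lay below 0.114. That same density enters this ratio. The interval lay below 0 for 6 ER genes (CANX, CALR, PDIA4, PDIA6, MANF and SYVN1) and above 0 for 2 (ERP44 and EDEM3), where it did so for 10.6% and 7.91% of all genes. The knockout side of this comparison is 1 sample, in which 13 of the 32 genes had fewer than 10 effective reads.

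HSPA5 and HSP90B1 were level with the middle gene. HSPA5 had a density of 3.27 in the knockout sample and 3.97 in wild type, a ratio of 0.00 (-0.22 to 0.22), and HSP90B1 had a ratio of 0.07 (-0.13 to 0.27). The lectins were lower, CANX with 2.73 and 4.38, a ratio of -0.40 (-0.62 to -0.18), and CALR with a ratio of -0.53 (-0.76 to -0.31). Scaling to the genes above a level of 1 kept both lectins below 0, at -0.28 and -0.41.

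PDIA4 was the lowest of the isomerases, with 0.854 in the knockout sample and 1.98 in wild type, a ratio of -0.92 (-1.41 to -0.46). PDIA6, with 1.33 and 2.15, had a ratio of -0.41 whose interval ends just under 0 (-0.82 to -0.00). PDIA3 at -0.14 (-0.41 to 0.13) and P4HB at 0.13 (-0.27 to 0.53) had intervals that include 0. ERP44 (ENSG00000023318, hg19 chr9:102741461-102861322, minus strand), which retrieves escaped ER proteins from the Golgi, was the highest of the 21. It had 0.316 in the knockout sample and 0.220 in wild type, a ratio of 0.80 (0.06 to 1.53), from 29.0 and 38.9 effective reads.

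SYVN1 (ENSG00000162298, hg19 chr11:64889252-64902004, minus strand) stood lowest, with 0.0633 in the knockout sample, against 0.310 in wild type. Its ratio of -2.01 (-3.61 to -0.74) rests on 5.45 effective reads in the knockout sample and 51.4 in wild type. As given above, SYVN1 passed the level filter only through that wild-type density, so its rank among the genes compared is not read as support. MANF had 0.525 and 1.17, a ratio of -0.87 (-1.79 to -0.05), from 15.0 and 64.4 effective reads. EDEM3 was at 0.68 (0.00 to 1.34). For XBP1 the ratio was -0.29 (-1.67 to 0.93), for ATF6 -0.08, and for ERN1, from 5.07 effective reads in the knockout sample, 0.06.

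Every other ER gene had a harringtonine interval that includes 0. Among the genes compared these were PDIA5 at 0.70, ERP29 at 0.43, SDF2L1 at 0.25, ERO1L at -0.06, CRELD2 at -0.24, DNAJB11 at -0.25 and HYOU1 at -0.48. Below the level, the ERAD genes EDEM1 (0.80), SEL1L (0.65), DERL2 (0.63) and HERPUD1 (0.55) lay above 0, and DERL1 (-0.77) and EDEM2 (-0.87) below it, EDEM2 from 0.901 effective reads in the knockout sample with an interval of -6.99 to 2.60. TXNDC5 was at 0.34, DNAJC10 at 0.36, DNAJB9 at 0.20 and DNAJC3 at -0.49. DERL2 and EDEM1, the lowest of all 32 with cycloheximide, thus lay above 0 here, on 8.30 and 5.03 effective reads in the knockout sample.

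The 2 treatments were profiled in separate libraries, so their knockout ratios can be set side by side. Of the 21 ER genes, 8 lay below 0 with both treatments, 3 above 0 with both, 5 above with cycloheximide and below with harringtonine, and 5 the other way. The sides were thus the same for 52.4% of the ER genes and for 56.8% of the 6045 genes. As a description across genes, which are not independent replicates, Pearson's r between the treatments was -0.33 and Spearman's rho -0.14 over the 21 ER genes, and 0.11 and 0.15 over all genes compared. The 21 genes share library, depth and scaling within each treatment. CANX, CALR, PDIA4 and PDIA6 had intervals below 0 with both treatments. The share of all genes that did so with both was not computed, so whether this is unusual cannot be said. Taken singly, intervals lay below 0 for 14.9% of all genes with cycloheximide and for 10.6% with harringtonine. CANX, CALR, PDIA4 and PDIA6 are abundant genes with narrow intervals, and their place relative to the middle gene depends on the scaling as given above. Over the 321 genes with 100 or more effective reads in every group, the median ratio was -0.23 with cycloheximide and -0.19 with harringtonine.

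MANF, SYVN1 and ERP44 lay on opposite sides of 0 with the 2 treatments. The difference of the knockout ratios, harringtonine minus cycloheximide, had a median of -0.07 over the 21 ER genes. It was at least 2-fold higher for 2 of them (ERP44 and SDF2L1) and lower for 3 (MANF, SYVN1 and XBP1), where 9.41% and 10.7% of all genes were. MANF, SYVN1 and ERP44 combined a 2-fold difference, a counting interval without 0 and ratios on opposite sides of 0, as 10.4% of all genes did. Its counting interval lay above 0 for HSP90B1 and ERP44 and below 0 for CALR, MANF and SYVN1, where it did so for 9.89% and 8.73% of all genes. The difference was -1.78 (-2.74 to -0.82) for MANF, -2.43 (-3.92 to -0.94) for SYVN1 and 1.35 (0.46 to 2.24) for ERP44. Smaller differences were 0.33 (0.09 to 0.58) for HSP90B1 and -0.31 (-0.59 to -0.03) for CALR. With 1 knockout sample after harringtonine, none of these could be set against a spread between samples.

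**Figure D3:**
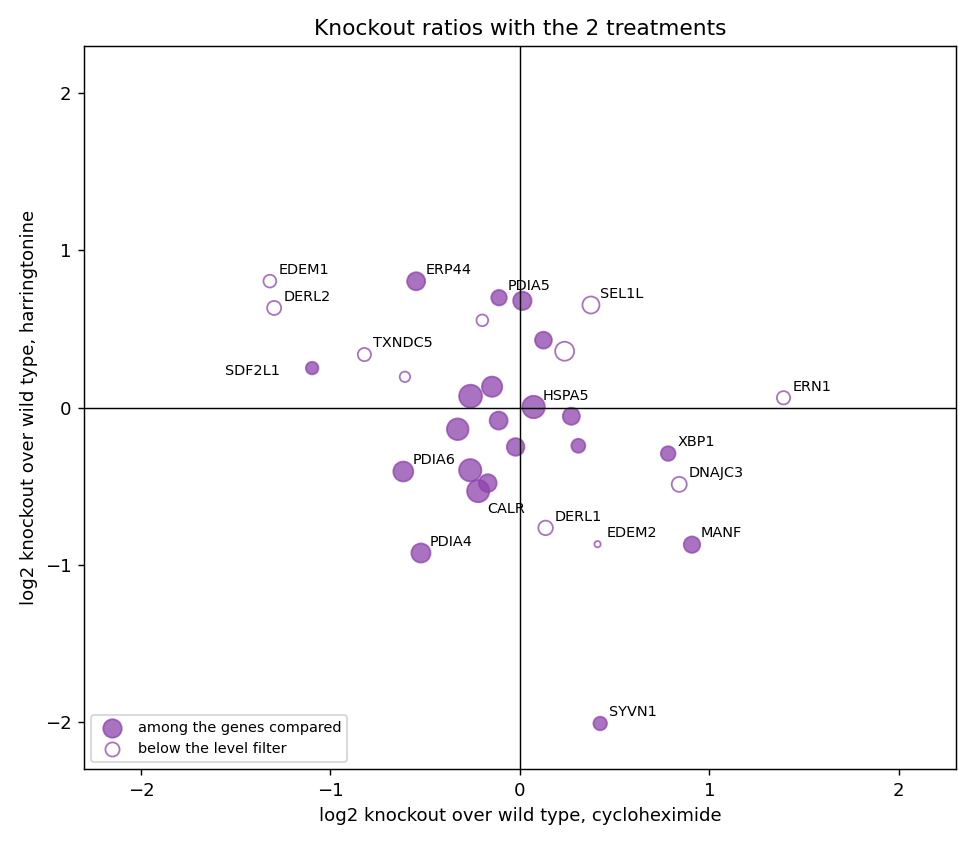
Knockout over wild type, as relative log2 ratio, with harringtonine (vertical axis) and with cycloheximide (horizontal axis) for the ER genes, with point size growing with the effective reads of the thinnest group. The largest points, which are HSPA5, HSP90B1, CANX, CALR and PDIA3, lie between -0.53 and 0.07 on both axes. MANF (0.91 and -0.87) and SYVN1 (0.42 and -2.01) lie at lower right, and ERP44 (-0.55 and 0.80) lies at upper left.

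Harringtonine over cycloheximide gave the ER genes values mostly above the middle gene in both genotypes. These comparisons use the same 4 columns as the knockout ratios and are not independent of them. In the knockout, the median of the 21 was 0.25, with 14 above 0 and 7 below and a range of -0.85 to 1.77. SDF2L1 was called higher and 0 ER genes lower, where 5.51% and 6.82% of all genes were called, and intervals lay above 0 for 7 ER genes and below 0 for 0, where they did so for 8.95% and 6.4%. The SDF2L1 ratio of 1.77 had an interval of -0.19 to 3.96 that includes 0. It rests on 7.08 effective reads with harringtonine and 4.09 with cycloheximide. The same cycloheximide density in the knockout enters its lower call given above. In wild type the median was 0.23, 18 lay above 0 and 3 below, and the range was -0.51 to 1.59. MANF and SYVN1 were called higher and 0 ER genes lower, where 3.41% and 3.31% of all genes were called. As given above, SYVN1 was among the genes compared only through its wild-type harringtonine density. Intervals lay above 0 for 9 ER genes and below 0 for 0, where they did so for 15.7% and 11% of all genes.

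The abundant chaperones had this direction in both genotypes. HSPA5 was at 0.35 (0.11 to 0.59) in the knockout and 0.43 (0.28 to 0.58) in wild type. CANX was at 0.34 (0.09 to 0.59) and 0.48 (0.34 to 0.62), and CALR at 0.25 (-0.00 to 0.50) and 0.56 (0.43 to 0.70). HSP90B1 was the exception in wild type, at 0.39 (0.18 to 0.60) in the knockout and 0.06 (-0.07 to 0.19) in wild type. All 5 ER genes with at least 100 effective reads in every group lay above 0 in each genotype, with medians of 0.35 in the knockout and 0.43 in wild type. Scaled instead to genes with 100 or more reads in both wild-type groups, HSP90B1 was at -0.16 and P4HB at -0.09 in wild type, so their direction turns under that scaling. HSPA5 (0.21), CANX (0.26), CALR (0.34), PDIA3 (0.14), PDIA4 (0.34) and PDIA6 (0.31) stayed above 0 but at smaller values. For HSPA5, CANX, CALR and PDIA3 the shift exceeded the mean arm of the counting interval. Of the 321 genes with that many reads in every group, 219 lay above 0 in the knockout (median 0.15) and 191 in wild type (median 0.17).

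Among the isomerases, PDIA6 was at 0.74 (0.25 to 1.22) in the knockout and 0.53 (0.28 to 0.78) in wild type, and PDIA3 at 0.55 (0.24 to 0.85) and 0.36 (0.18 to 0.53). PDIA4 was at 0.15 in the knockout and 0.56 (0.30 to 0.80) in wild type. ERP44 was on opposite sides, at 0.83 (0.05 to 1.60) in the knockout and -0.51 (-1.06 to 0.00) in wild type. MANF was at -0.70 (-1.64 to 0.16) in the knockout and 1.08 (0.59 to 1.58) in wild type, and SYVN1 at -0.85 (-2.54 to 0.57) and 1.59 (0.98 to 2.20). For MANF and SYVN1 the wild-type density with harringtonine was the highest of the 4 means, so this 1 column of 3 samples enters both the harringtonine ratio in wild type and the knockout ratio with harringtonine.

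**Figure D4:**
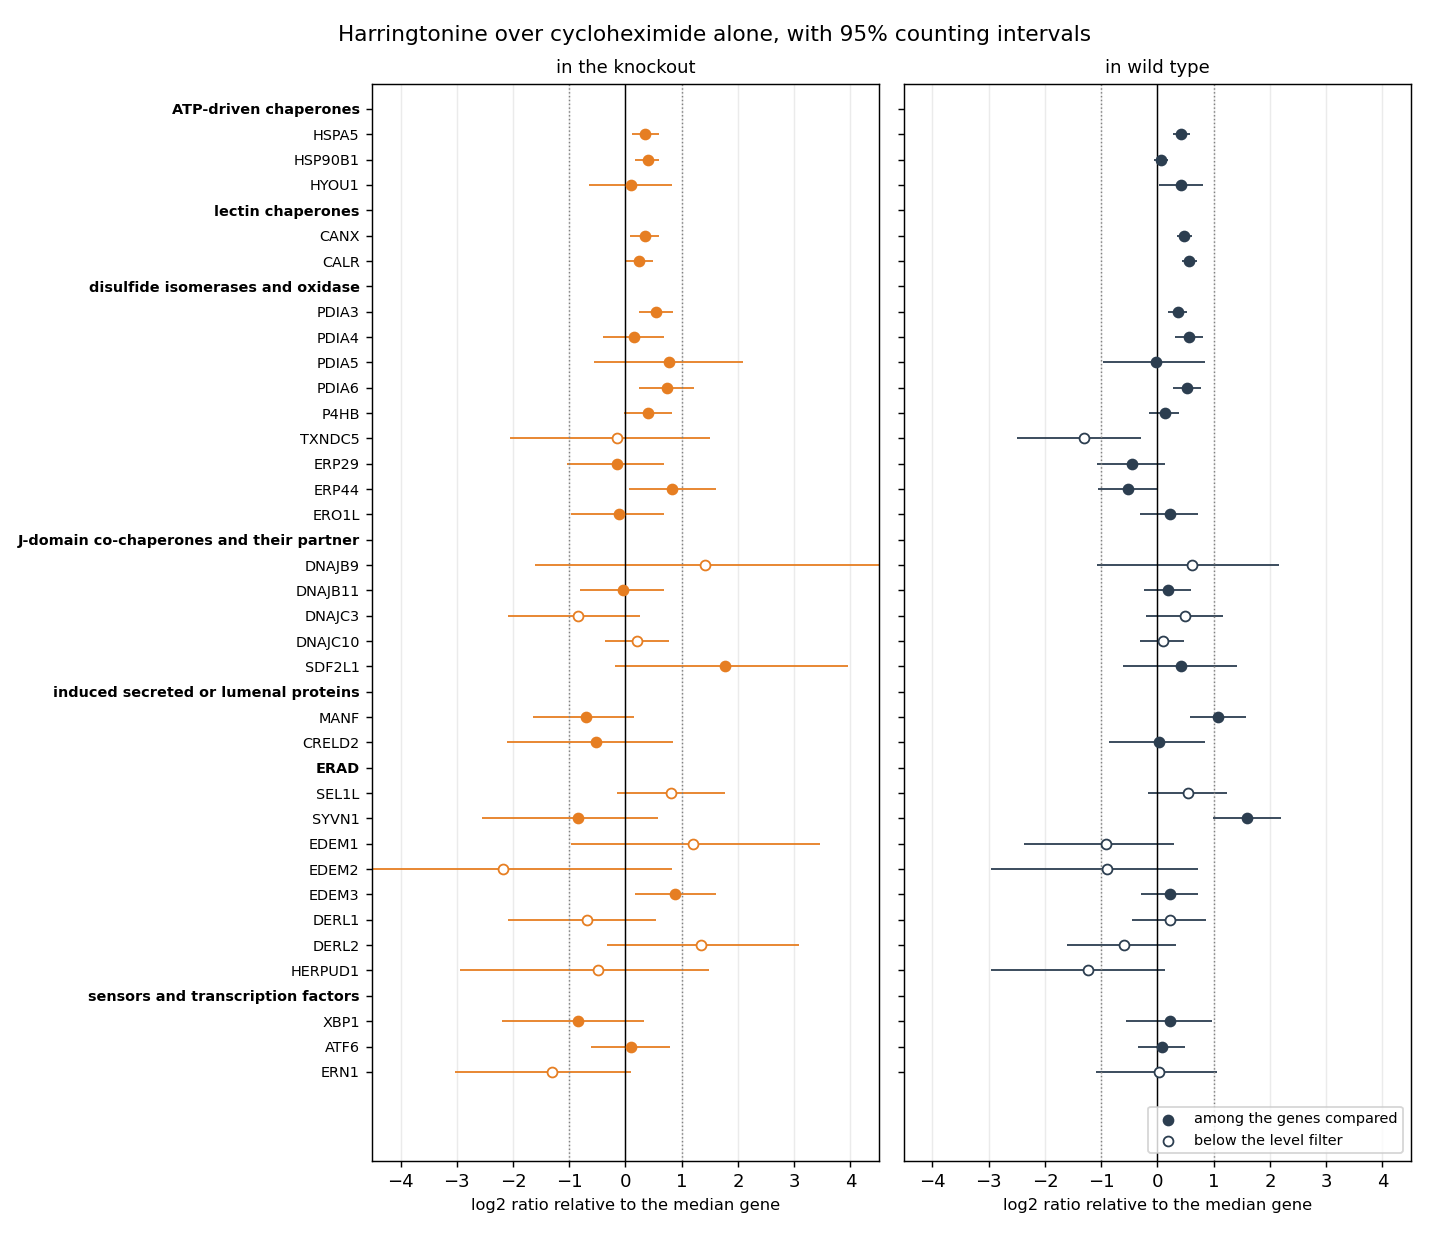
Relative log2 ratio of harringtonine over cycloheximide for each of the 32 ER genes, in the knockout and in wild type, with 95% counting intervals. Filled points are the 21 genes compared and open points the 11 below the level. In wild type 18 of the 21 lie above 0, with SYVN1 (1.59) and MANF (1.08) highest.

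The 7 genes with the promoter motif had a median harringtonine ratio of 0.34 in the knockout, with 5 above 0, and of 0.43 in wild type, with 7 above 0. The 13 compared genes without it had medians of 0.11, with 8 above 0, and 0.22, with 10 above 0. For knockout over wild type the medians with and without the motif were -0.22 and -0.11 with cycloheximide, and -0.29 and -0.06 with harringtonine. The motif genes were also the more abundant ones, and the part of level in these medians was not tested.

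Densities summed by role are led by the most abundant members of each role. Relative to the middle gene, the sum over all 32 was -0.17 for knockout over wild type with cycloheximide and -0.23 with harringtonine. With cycloheximide the isomerases and oxidase gave -0.32, the lectins -0.23, the ATP-driven chaperones -0.14, the J-domain group -0.15 and ERAD -0.05, while the sensors and factors gave 0.50 and MANF with CRELD2 0.78. With harringtonine the lectins gave -0.49, MANF with CRELD2 -0.77, the isomerases -0.17, the sensors -0.17, ERAD -0.06, the J-domain group 0.01 and the ATP-driven chaperones 0.02. The share of all effective reads, given above, is another scale. By that share the 32 genes were higher in the knockout with harringtonine (0.417% against 0.392%), the opposite direction to the centred sum of -0.23. Scaling to total reads was not among the alternatives.

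Other genes of the same pathways were taken from 3 lists that hold no member. The folding enzymes and the ERAD genes had medians near the middle gene, and the genes of the unfolded protein response had a lower median with cycloheximide. Of 39 further lectin-cycle and folding enzymes, 30 were compared, with a median knockout ratio of -0.01 with cycloheximide (15 above 0 and 15 below, 2 called higher and 0 lower) and 0.01 with harringtonine (2 called higher and 3 lower). UGGT1, which re-glucosylates unfolded glycoproteins so that they bind CANX and CALR again, was at 0.45 (0.15 to 0.74) with cycloheximide and 0.40 with harringtonine. GANAB, the glucosidase that releases them, was at -0.32 (-0.53 to -0.10) and -0.43. CALU, a calcium-binding protein of the secretory pathway, was at -0.64 (-1.04 to -0.26) and -0.02. The called genes, named after their values were seen, were FKBP2 and SDF2 (higher with cycloheximide), SDF2 and TMX3 (higher with harringtonine) and FKBP2, P4HA1 and SDF4 (lower with harringtonine).

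Of 37 further ERAD genes, 35 were in the table and 21 were compared, with a median of 0.09 with cycloheximide (14 above 0 and 7 below, 0 called higher and 1 lower) and 0.02 with harringtonine (2 called higher and 1 lower). VCP, the ATPase that extracts ubiquitinated chains from the membrane, was lower with both treatments, at -0.44 (-0.71 to -0.19) with cycloheximide and -0.96 (-1.34 to -0.60) with harringtonine. FAF2, which recruits VCP to the ER, was the gene called lower with cycloheximide, at -1.57 (-2.70 to -0.61) from 9.67 effective reads in knockout cells, and was at -0.51 with harringtonine. UBE2G2, a ubiquitin-conjugating enzyme of ERAD, was at 0.65 (0.25 to 1.05) and -0.08. The genes called with harringtonine, named after their values were seen, were SELK and UBL4A (higher) and TMUB1 (lower). The background shares for these calls are the 2-fold ones given above for each treatment.

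Of 26 further genes of the unfolded protein response, 12 were compared, with a median of -0.34 with cycloheximide (5 above 0 and 7 below, 2 called higher and 0 lower) and -0.07 with harringtonine (6 above and 6 below, 1 called higher and 0 lower). The 2 called higher with cycloheximide were BAK1, a pore-forming protein of apoptosis, at 1.5 (0.67 to 2.32), and PPP1R15A (GADD34), which directs the phosphatase that reverses PERK signalling, at 1.21 (0.31 to 2.08). With harringtonine they were at 0.56 and -0.88. TMBIM6, an ER membrane protein that restrains ERN1, was at -0.62 (-0.90 to -0.35) and 0.04. The gene called higher with harringtonine, named after its value was seen, was DDIT3 (CHOP), a stress-induced transcription factor, at 3.81 (1.13 to 8.27) from 7.78 effective reads in the knockout sample and 1.30 in wild type. With cycloheximide DDIT3 lay on the other side of 0, at -0.62 with an interval of -2.37 to 0.80 that includes 0.

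The authors' deposited table also has values headed TE, which the header does not expand. In all 12241 entries with both, TE minus the deposited log2 ratio was the same number for both treatments (to within 1e-06), so TE adds 1 offset per gene and holds no separate information on harringtonine. The deposited ratios run wild type over knockout, and the offset is what TE adds to them. What the offset measures, and in which direction, was not stated. In the authors' deposited table the offset of the 32 ER genes had a median of 0.03 and ran from -0.21 (PDIA6) to 0.26 (XBP1), with 18 above 0 and 14 below. In the authors' deposited table the median ratio of the ER genes was 0.55 and the median TE 0.59 with cycloheximide, and both were 0.31 with harringtonine. The offset turned the sign of EDEM2 with cycloheximide and of ERP29 and SDF2L1 with harringtonine, and of no other ER gene. For MANF and SYVN1 it was 0.23 and 0.18 in the authors' deposited table, the same with both treatments.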

How the data were processed

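Ribosome footprints were measured in 12 HEK293 samples in 4 groups. The submitters' processing notes name TopHat and the build hg19. Not given in the sources used here are the counting tool, the annotation and the handling of reads shared between overlapping genes or near-identical copies. Per the file headers, the deposited values are 1 mean density per group. This signal was assumed to be reads divided by the longest transcript length and multiplied by a library factor. The sources used here do not state that form or its scale. The knockout densities, entered as another kind of value because error cells stand among them, are the same deposited signal. The deposited log2 ratios and TE values were entered as a score for the same reason. The deposited log2 ratios run wild type over knockout.

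From these means, log2 ratios were taken without a pseudocount and centred on the median of the 6045 genes compared. Entries without a knockout value (918), on alternate sequences (290) or with a deposited ratio that differed from the means by over 1e-06 (11) were set aside, which left 18050. Effective reads were estimated from the repeated steps of density times length at low values. In the 1-library group only 7.43% of 12825 products were whole multiples of the step (within 0.01), where whole reads in the assumed form would give whole multiples. The assumed form was thus not borne out for most genes, and effective reads and intervals are approximate. The median gene compared had 33.3 effective reads in knockout and 96.0 in wild-type cells with cycloheximide, and 16.5 and 37.5 with harringtonine. Interaction intervals used a normal approximation. Where only means were held, the design provided for no test. The 32 genes and all gene lists were chosen with earlier results of these data known. Genes named by a rule set beforehand were all 32, CNBP and, of each other list, the 3 with the largest cycloheximide knockout ratio relative to its counting error. The keratin and blood cell genes were named as a check of the line. Further called genes of the other lists were named after their values were seen. Promoters came from RefSeq, GRCh38.p14; 2 of the 32 genes had no entry. Alternatives covered centring, scaling, pseudocount, filters, the set-aside entries and a 1.5-fold call. Python 3.11.15, pandas 2.3.3, NumPy 2.4.6, SciPy 1.17.1 and Matplotlib 3.10.9 were used.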

Additional observations from a re-analysis of the deposited data

Results flagged for a closer look

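In 3 ER genes, the knockout ratio differed between harringtonine and cycloheximide by at least 2-fold with a counting interval that excluded 0, and the ratio lay on opposite sides of 0 with the 2 treatments. The same held for 10.4% of the 6045 genes compared. The difference, harringtonine minus cycloheximide on the log2 scale, was -2.43 for SYVN1, -1.78 for MANF and 1.35 for ERP44. SYVN1 passed the level filter only through its wild-type harringtonine density, which also enters its difference. None of the 3 differences was tested across samples, since the table holds 1 mean per group and the knockout group with harringtonine is 1 sample.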

How the results depend on the processing

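No paired analysis was possible because the table holds 1 mean per group, and leaving out replicates could not be run for the same reason. Over the alternatives, the median ratio of the ER genes ran from -0.56 to -0.03 (knockout over wild type, cycloheximide), from -0.42 to 0.05 (harringtonine), from 0.12 to 0.52 (harringtonine over cycloheximide, knockout) and from 0.12 to 0.46 (wild type). The lowest knockout medians came without centring, which leaves each comparison's median in. The harringtonine knockout median was 0.0475 over the 5 ER genes with 100 effective reads when centred on the 322 genes with as many, and -0.14 over those 5 with the centring used throughout. Counts of called genes rest on a few thinly covered genes. Cycloheximide knockout calls lower, 1 as reported, became 2 without centring, 3 without the level filter, 2 at 1.5-fold, and 0 with a pseudocount of 0.1 or 1, above a level of 1 or with 100 reads; calls higher, 0, became 1 without the filter and 2 at 1.5-fold. Harringtonine knockout calls lower, 1, became 3 without centring, 3 at 1.5-fold and 0 with a pseudocount of 1, above a level of 1 or with 100 reads; calls higher, 0, became 3 at 1.5-fold. Harringtonine over cycloheximide in the knockout, 1 higher and 0 lower, became 5 higher without centring, 4 higher and 2 lower without the filter, 5 higher and 3 lower at 1.5-fold, and 0 higher with a pseudocount of 1, above a level of 1 or with 100 reads. In wild type, 2 higher and 0 lower became 0 higher with either pseudocount, above a level of 1 or with 100 reads, and 2 lower without the filter. At 1.5-fold, 15.8% of all genes were higher and 12.8% lower (cycloheximide knockout), 17.8% and 17.1% (harringtonine knockout), and 15.4% and 16.7% (harringtonine over cycloheximide, knockout). For the other settings the share of all genes called was not computed, so those counts show only how calls depend on the processing. Leaving out the centring shifts the ratios of all genes alike. A pseudocount shrinks low genes by construction. Among single ER genes, 441 values moved by less than the mean arm of their counting interval and 35 by more, and no called gene changed sign. Depth limits ERAD genes and sensors most, since 13 of the 32 genes had under 10 effective reads in the knockout sample with harringtonine.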
